A study of Mus musculus with 6 samples.

Results

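Vascular connexin genes encode the gap junction subunits of blood vessel walls, and 4 of them were followed here, Gja4, Gja5, Gja1 and Gjc1. They were taken by name from a table of 23420 genes, and 4 of 4 were abundant enough to be tested among 13142 genes. The table holds read counts of endothelial cells from mouse embryos at embryonic day 12.5. The tdTom+ group held endothelial cells in which the red reporter RosatdTomato had been switched on by the allele Csf1r-iCre, in which the promoter of the myeloid receptor gene Csf1r drives Cre. The tdTom- group held endothelial cells without reporter signal, and both groups carried the same alleles, Csf1r-iCre and RosatdTomato. Cells of whole embryos that were PECAM1+ and negative for CD45, CD11b and KIT were sorted, so that each library mixes vessels of all organs. Each group had 3 libraries from 3 embryos, and the label of a cell records Cre activity at any earlier time, in the cell or in its ancestors. No label says that a library was a separate embryo, so p-values measure the spread between these libraries.

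Connexin subunits assemble into hemichannels, and the hemichannels of neighbouring cells dock to form gap junction channels that pass ions and small molecules. In vessels they couple endothelial cells with each other and with the muscle cells of the wall, which lets changes in membrane potential and calcium travel along the vessel. Gja4 (protein Cx37) and Gja5 (Cx40) are known in the mouse as connexins of arterial endothelium, with Gja5 also in the atria and the conduction system of the heart. Gja1 (Cx43) is made by many cell types and Gjc1 (Cx45) by vessel muscle and early heart cells, beside endothelium.

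Library totals ran from 10675472 to 11501313 counts in tdTom+ and from 8919887 to 11767956 counts in tdTom- libraries. A floor of 3 counts was 0.263 to 0.280 CPM (counts scaled to library size) in tdTom+ and 0.254 to 0.336 CPM in tdTom- libraries, which covers counting error only. The 10 endothelial core markers summed to 7575 to 8082 CPM in tdTom+ and 7614 to 7862 CPM in tdTom- libraries, with 10 of 10 tested and 0 passing by edgeR, so the labelled cell type was present in both. At an unadjusted p under 0.05 was 1 of them, Pecam1, with a log2 fold change of -0.16 ± 0.068 (SE, unadjusted p = 0.0374 by edgeR). The 10 megakaryocyte and platelet markers summed to 262 to 492 CPM in tdTom+ and 31.3 to 49.9 CPM in tdTom- libraries.

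Gja4 was lower in tdTom+ cells, Gja5 was lower by a smaller amount that missed the threshold, and Gja1 and Gjc1 did not pass. Of the 4 connexin genes 1 fell, 0 rose and 3 did not pass by edgeR's quasi-likelihood test with a Benjamini-Hochberg threshold of 0.05 over 13142 genes. Of all tested genes, 0.814% were called lower and 0.769% higher, and 10.7% had an unadjusted p under 0.05. The groups did not overlap in 2 of the 4, Gja4 and Gja5, both lower in tdTom+, against 9.35% of all tested genes. The median log2 fold change was -0.29 for the 4 genes and -0.00026 for all tested genes. In these bulk libraries, fewer cells that express a connexin and less of its RNA per cell cannot be told apart.

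**Figure D1:**
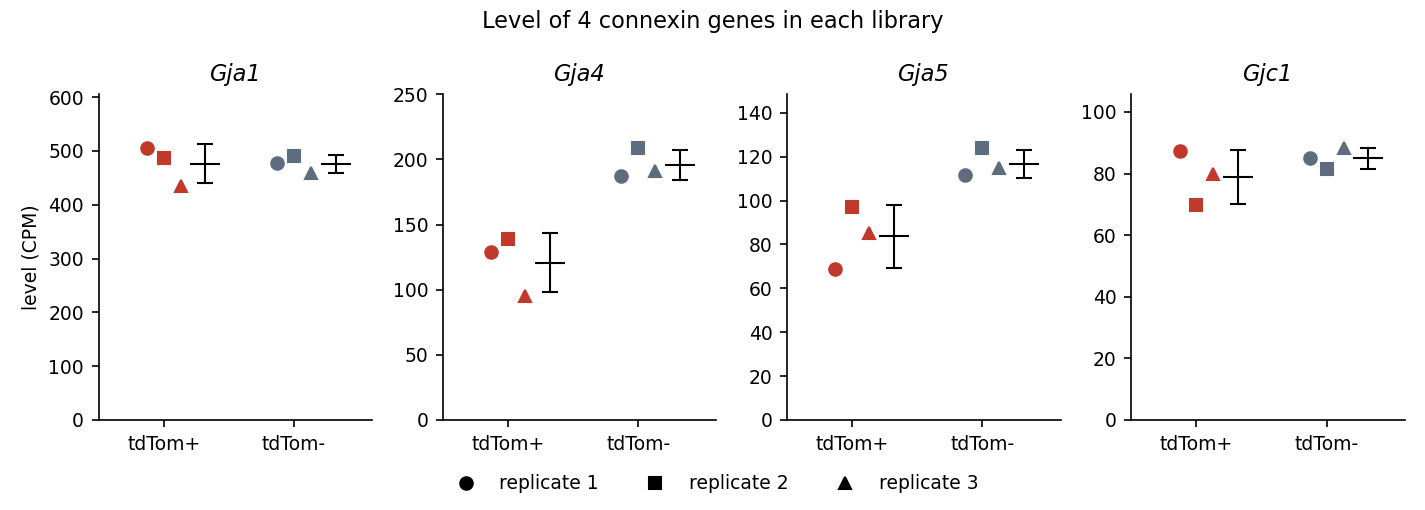
The y axis gives the level in CPM from 0 up, with 1 panel per gene and 1 point per library; the mark beside the points is the mean with its SD (n = 3). The tdTom+ points of Gja4 and Gja5 lie below the tdTom- points, while those of Gja1 and Gjc1 overlap.

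Gja4 lies on chromosome 4 from 127311421 to 127314039 on the minus strand (mm10). Its levels were 129, 139 and 94.98 CPM in tdTom+ replicates 1 to 3, against 187, 209 and 191 CPM in tdTom- replicates 1 to 3. The counts behind them were 1467, 1514 and 1016 in tdTom+ and 1927, 2467 and 1709 in tdTom- libraries. All tdTom+ libraries were below all tdTom- libraries, and tdTom+ replicate 3 was the lowest. The mean was 121 ± 22.9 CPM in the tdTom+ group and 196 ± 11.6 CPM in the tdTom- group (SD, n = 3 each), a log2 fold change of -0.70 ± 0.13 (SE, with an adjusted p of 0.0258 by edgeR), or a change of -38.3%. The 95% interval of that difference ran from -49.4% to -24.7%. The call ended without tdTom+ replicate 1 (edgeR adjusted p = 0.0668) and without tdTom- replicate 1, 2 or 3 (0.0991, 0.124 and 0.118). The authors' deposited table lists Gja4 with a log2 fold change of 0.70, which there is tdTom- over tdTom+, at an adjusted p of 4.04e-05, and calls 1.92% of its 15135 genes lower in tdTom+.

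Gja5 lies on chromosome 3, and its GENCODE gene model runs from 96904693 to 97077416 on the plus strand (mm10) and overlaps genes on the opposite strand, among them Gpr89. Reads from these cannot be told apart from Gja5 where strand was not recorded. Gja5 had 68.7, 97.2 and 85.4 CPM in tdTom+ replicates 1 to 3, against 112, 124 and 115 CPM in tdTom- replicates 1 to 3. The groups did not overlap, and the lowest library was tdTom+ replicate 1 and not replicate 3 as for Gja4. The mean was 83.8 ± 14.3 CPM in the tdTom+ group and 117 ± 6.39 CPM in the tdTom- group (SD, n = 3 each), a log2 fold change of -0.48 ± 0.13 (SE) that missed the threshold (edgeR adjusted p = 0.128, unadjusted p = 0.0041). The 95% interval ran from -41.5% to -12.3%. With DESeq2 the Gja5 difference passed (adjusted p = 0.0282), and DESeq2 called 1.92% of its 15135 genes lower in tdTom+. The authors' deposited table gives Gja5 a log2 fold change of 0.48, tdTom- over tdTom+, at an adjusted p of 0.0282. For Gja4 and Gja5 the deposited values nearly equal those of DESeq2 here, which used the same counts, so they are not separate evidence.

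The promoters of Gja4 and Gja5, the members whose groups did not overlap, are shown as RefSeq windows of 300 bases on build GRCm38.p6 that run from 250 bases before to 50 after the start. RefSeq windows were matched for 3 of the 4 genes. Capitals mark matches to 5 motifs, searched on both strands. The general promoter motifs were the TATA box, spelled TATAAA, and the GC box that binds factors such as Sp1, spelled GGGCGG. The core bound by the Notch effector RBPJ was spelled TGGGAA and the core bound by SOX factors ACAAT. The core bound by KLF factors was spelled CACCC, which reads GGGTG where it lies on the other strand.
Gja4 (chr4:127313990-127314289, minus strand): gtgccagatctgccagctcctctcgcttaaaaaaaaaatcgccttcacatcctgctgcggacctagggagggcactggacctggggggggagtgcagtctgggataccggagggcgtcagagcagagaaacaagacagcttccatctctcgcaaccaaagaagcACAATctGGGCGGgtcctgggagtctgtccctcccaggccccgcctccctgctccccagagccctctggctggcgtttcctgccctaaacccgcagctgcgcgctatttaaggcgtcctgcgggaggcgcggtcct
Gja5 (chr3:97032152-97032451, plus strand): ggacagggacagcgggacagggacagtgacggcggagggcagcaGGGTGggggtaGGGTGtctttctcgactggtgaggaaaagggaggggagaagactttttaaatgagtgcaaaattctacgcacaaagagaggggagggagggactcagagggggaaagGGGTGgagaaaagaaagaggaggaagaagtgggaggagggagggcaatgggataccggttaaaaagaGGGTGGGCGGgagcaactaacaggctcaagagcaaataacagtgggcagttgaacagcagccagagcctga
The Gja4 window held an ACAAT match that begins 86 bases before the start and a GGGCGG match 79 bases before it. The Gja5 window held 4 CACCC matches, of which the one beginning 21 bases before the start overlaps its only GGGCGG match. These motifs are common, with CACCC in 57.5%, GGGCGG in 35.7% and ACAAT in 31.0% of all 32851 windows of this length. TGGGAA, found in 25.6%, and TATAAA, found in 13.6%, were in neither window, which says only that these letters are absent there. The RefSeq window of Gja1 (chr10:56377050-56377349, plus strand) held none of the 5 motifs.

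Gja1 did not pass. It lies on chromosome 10 from 56377330 to 56402513 on the plus strand (mm10). Its levels were 506, 488 and 436 CPM in tdTom+ replicates 1 to 3, against 479, 491 and 458 CPM in tdTom- replicates 1 to 3. The groups overlapped, and the highest and the lowest library were both tdTom+. The mean was 476 ± 36.3 CPM in the tdTom+ group and 476 ± 16.6 CPM in the tdTom- group (SD, n = 3 each), a log2 fold change of 0.00064 ± 0.074 (SE, with an adjusted p of 0.999 by edgeR) whose sign changed with the processing. The 95% interval ran from -10.7% to 12.04%, so a change of the size seen in Gja4 lies outside it.

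Gjc1 lies on chromosome 11 from 102799579 to 102819700 on the minus strand (mm10). Its levels were 87.2, 69.8 and 79.8 CPM in tdTom+ replicates 1 to 3, against 85.2, 81.4 and 88.3 CPM in tdTom- replicates 1 to 3. The groups overlapped, with tdTom+ replicate 2 the lowest library. The mean was 79.0 ± 8.70 CPM in the tdTom+ group and 85.0 ± 3.45 CPM in the tdTom- group (SD, n = 3 each), a log2 fold change of -0.11 ± 0.12 (SE, with an adjusted p of 0.845 by edgeR). Its 95% interval ran from -22.4% to 11.4%.

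The libraries of the tdTom+ group differed more among themselves than those of the tdTom- group, for each of the 4 genes. The coefficient of variation was 18.9% in tdTom+ and 5.92% in tdTom- libraries for Gja4, and 17.1% and 5.47% for Gja5. It was 7.62% in tdTom+ and 3.49% in tdTom- libraries for Gja1, and 11.0% and 4.06% for Gjc1. Counting error at the smallest count was at most 3.62%, and the difference in spread was not tested. It was not particular to these genes. Over the whole table, the mean chi-square per gene between 2 libraries was 15.3 to 19.7 in tdTom+ and 8.18 to 10.6 in tdTom-. The tdTom+ library with the lowest level was replicate 3 for Gja4 and Gja1, replicate 1 for Gja5 and replicate 2 for Gjc1.

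Levels of different genes were compared per length, as CPM per kilobase of the longest GENCODE transcript matched to a curated RefSeq mRNA (3071 bases for Gja1, 1685 for Gja4, 3109 for Gja5 and 2314 for Gjc1). Per length, Gja1 was the highest of the 4 in both groups, at 155 ± 11.8 in tdTom+ and 155 ± 5.41 CPM per kilobase in tdTom- cells (SD, n = 3 each). Gja4 came next, at 71.7 ± 13.6 in tdTom+ and 116 ± 6.88 CPM per kilobase in tdTom- cells. Gjc1 was at 34.1 ± 3.76 in tdTom+ and 36.7 ± 1.49 CPM per kilobase in tdTom- cells, and Gja5 at 26.9 ± 4.61 and 37.6 ± 2.06 CPM per kilobase. Gja1 and Gja4 stood apart from the others in every library. Gjc1 and Gja5 overlapped within each group, with 30.2 to 37.7 against 22.1 to 31.3 CPM per kilobase in tdTom+, and 35.2 to 38.2 against 35.9 to 39.9 CPM per kilobase in tdTom- libraries. Of the summed per-length level of the 4 genes, Gja1 made up 53.9% ± 1.24 in tdTom+ and 44.9% ± 0.898 in tdTom- cells, and Gja4 made up 24.8% ± 2.82 in tdTom+ and 33.6% ± 0.922 in tdTom- cells (SD, n = 3 each). These ranks and shares use 1 transcript length per gene, so a different mix of transcripts would shift them. All annotated exons together cover 10257 bases for Gja1 and 1685 for Gja4, and by those lengths Gja1 would not be above Gja4.

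Ratios of 2 connexin genes within a library do not depend on how libraries are scaled. For each Gja4 read, Gja1 had 3.52 to 4.59 reads in tdTom+ and 2.35 to 2.56 reads in tdTom- libraries, so that the groups did not overlap. On the log2 scale that ratio differed by 0.71 ± 0.12 (SE, n = 3 each, two-sided exact permutation p = 0.1, adjusted p = 0.2 over 6 pairs), and 0.1 is the smallest p that 3 libraries against 3 can give. Gja1 to Gja5 differed by 0.49 ± 0.18, with 5.01 to 7.36 Gja1 reads per Gja5 read in tdTom+ and 3.96 to 4.28 in tdTom- libraries, and Gja4 to Gjc1 by -0.60 ± 0.23, also without overlap (SE, n = 3 each, exact permutation p = 0.1, adjusted p = 0.2 for each). Gja1 to Gjc1 and Gja5 to Gjc1 overlapped between the groups (difference 0.11 ± 0.12 and -0.38 ± 0.25, SE). Within pairs of same-numbered libraries, Gja1 to Gjc1 differed by 0.046, 0.21 and 0.073 and Gja5 to Gjc1 by -0.74, -0.13 and -0.28 for replicates 1 to 3, with 1 sign each (exact paired permutation p = 0.25, the smallest that 3 pairs can give). Without tdTom+ replicate 1 the difference of Gja1 to Gja5 was 0.31 and that of Gja5 to Gjc1 was -0.17.

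The ratio of Gja4 to Gja5 differed by -0.22 ± 0.22 on the log2 scale (SE, n = 3 each, exact permutation p = 0.4, adjusted p = 0.48), so that a larger fall of Gja4 than of Gja5 was not shown. Gja4 had 1.87, 1.43 and 1.11 reads per Gja5 read in tdTom+ replicates 1 to 3, against 1.67, 1.68 and 1.67 in tdTom- replicates 1 to 3. The tdTom- SD of 0.0073 on the log2 scale was below the 0.053 that counting alone would give, so the closeness of those 3 values is not a measure of spread. The tdTom+ SD of 0.38 was above the counting value of 0.062.

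**Figure D2:**
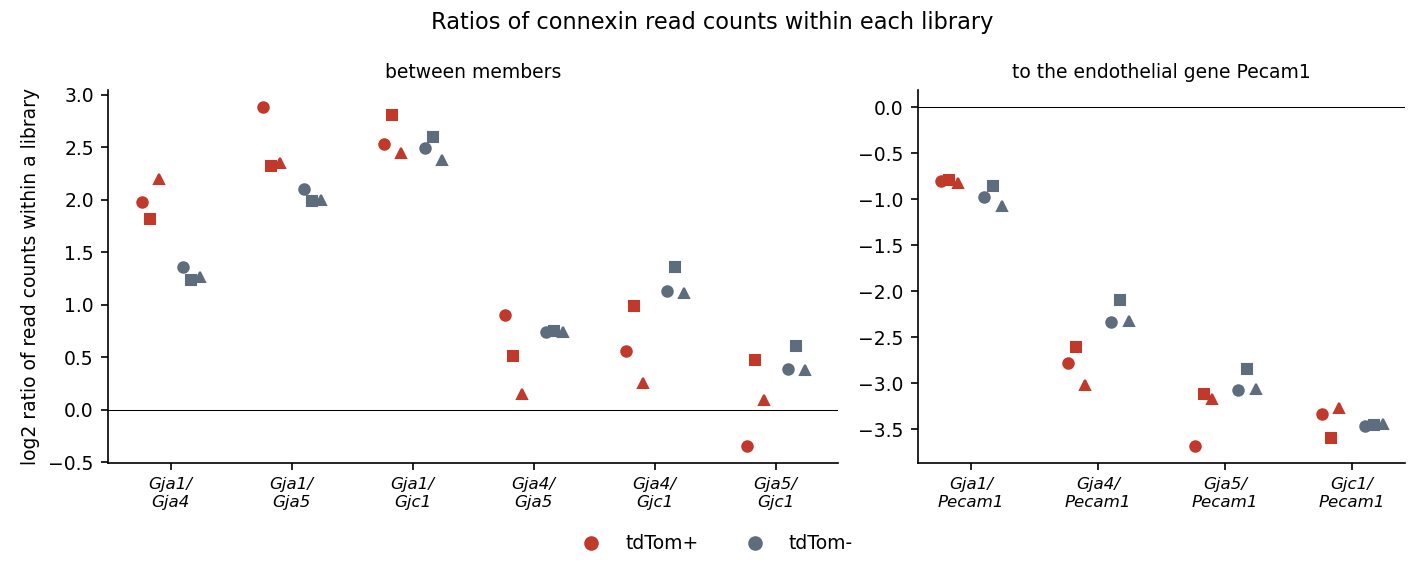
The y axis gives the log2 ratio of the read counts of 2 genes within a library, with 1 point per library, tdTom+ left of tdTom- and the replicates as circle, square and triangle. Gja1 to Gja4 sits at 1.82 to 2.20 in tdTom+ libraries and at 1.23 to 1.36 in tdTom- libraries.

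Set against Pecam1, the endothelial adhesion gene used for sorting, Gja4 and Gja5 remained lower in tdTom+ libraries. Gja4 had 0.124 to 0.164 reads per Pecam1 read in tdTom+ and 0.199 to 0.235 in tdTom- libraries, a log2 difference of -0.55 ± 0.14 (SE, n = 3 each, two-sided exact permutation p = 0.1, adjusted p = 0.133 over the 4 genes). Gja5 had 0.0779 to 0.115 reads per Pecam1 read in tdTom+ and 0.119 to 0.139 in tdTom- libraries, a log2 difference of -0.33 ± 0.20 (SE, n = 3 each, exact permutation p = 0.1, adjusted p = 0.133). Without tdTom+ replicate 1, the lowest library, the Gja5 difference was -0.15, and over all libraries left out in turn it ran from -0.43 to -0.15. With Cdh5, the gene of endothelial cadherin, in place of Pecam1 these differences were -0.88 and -0.66. Gja1 to Pecam1 was higher by 0.16 ± 0.061 (SE) and Gjc1 to Pecam1 by 0.053 ± 0.099 (SE), and against Cdh5 both turned round, to -0.17 and -0.28. Pecam1 itself had a log2 fold change of -0.16 ± 0.068 and Cdh5 one of 0.17 ± 0.082 (SE), neither passing by edgeR. Neither gene overlapped between the groups, and each ratio carries the shift of its denominator.

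No gene in the list of other connexins and pannexins passed by edgeR. The list, in which pannexins are a related family of membrane channel proteins, had 19 genes in the table, of which 6 were abundant enough to test, and 0 rose and 0 fell (edgeR). Of these 6, 2 had an unadjusted p under 0.05, against 10.7% of all tested genes. DESeq2 called 1 of them, against 502 of its 15135 genes. The median log2 fold change was -0.35 for the 6 genes and -0.00026 for all tested genes. Gja6, Gja10 and Gje1 had 0 counts in all 6 libraries, below the floor of 3 counts. Germ cell transcripts also differed. Of 7 tested germ cell markers 4 fell by edgeR, against 0.814% of all tested genes. Among them were Dazl and Dppa3, both at 0 counts in all tdTom+ libraries and at 183 to 279 and 115 to 246 counts in tdTom- libraries. The count of 4 dropped to 2, Dazl and Dppa3, without tdTom- replicate 3. The part of such cells in the connexin levels was not tested.

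Panx1, a pannexin gene that encodes an ATP release channel, had 18.5 ± 3.71 CPM in the tdTom+ group and 29.4 ± 1.88 CPM in the tdTom- group (SD, n = 3 each), without overlap, and a log2 fold change of -0.67 ± 0.20 (SE, with an adjusted p of 0.177 by edgeR). Gjb2, an epithelial connexin gene, and Gjb6, its close relative, had 0 to 29 and 0 to 38 counts in tdTom+ libraries and 9 to 12 and 1 to 12 counts in tdTom- libraries, and gave no call.

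Among genes for connexin partners and turnover 1 of 15 fell, 0 rose and 14 did not pass, with a median log2 fold change of -0.062. Of all tested genes, edgeR called 0.814% lower. The gene that fell was Cdh2, which encodes N-cadherin, an adhesion protein of junctions between endothelial and mural cells. It had 60.2 ± 4.70 CPM in the tdTom+ group and 106 ± 10.2 CPM in the tdTom- group (SD, n = 3 each), a log2 fold change of -0.82 ± 0.12 (SE, with an adjusted p of 0.00741 by edgeR), a call that was lost without tdTom- replicate 1 (0.0606). Cav1, the caveolin gene, had a log2 fold change of -0.33 ± 0.091 (SE, with an adjusted p of 0.125 by edgeR) and passed with the replicate block (0.0303) and with DESeq2 (0.0149), which brings the count to 2 of 15 in either. Over all genes, the block called 167 of 13142 lower in tdTom+ and DESeq2 called 1.92% of 15135. The kinase gene Src had -0.44 ± 0.16 and Cdh5 0.17 ± 0.082 on the log2 scale (SE, with an adjusted p of 0.304 and 0.534 by edgeR).

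Arterial and flow regulators had mostly lower levels in tdTom+ cells, with 19 of 23 log2 fold changes below 0 and a median of -0.19. Only 1 of 23 fell, against 0.814% of all tested genes, while 0 rose and 22 did not pass (edgeR). The groups did not overlap in 10 of the 23 with tdTom+ lower, against 9.35% of all tested genes. They also did not overlap in 1 of the 23 with tdTom+ higher, against 1035 of the 13142 tested genes. That 1 was Nr2f2, a regulator of venous identity, named after its values were seen, with 119 ± 25.97 CPM in the tdTom+ group and 87.4 ± 4.32 CPM in the tdTom- group (SD, n = 3 each) and a log2 fold change of 0.44 ± 0.15 (SE, with an adjusted p of 0.234 by edgeR). The gene that fell was Jag1, a Notch ligand gene, with 35.0 ± 2.89 CPM in the tdTom+ group and 71.2 ± 5.38 CPM in the tdTom- group (SD, n = 3 each) and a log2 fold change of -1.03 ± 0.13 (SE, with an adjusted p of 0.00435 by edgeR). The Notch target gene Hey2 had 3.37 ± 3.11 CPM in the tdTom+ group and 16.96 ± 3.64 CPM in the tdTom- group (SD, n = 3 each), a log2 fold change of -2.33 ± 0.54 (SE) that missed the threshold (edgeR adjusted p = 0.0654). Hey2 passed without tdTom+ replicate 2 (0.00255), with the replicate block (0.00827), with either other filter (0.0417 and 0.0472), with limma-voom (0.0389) and with DESeq2 (0.000555). With the block 2 of 23 fell, against 167 of all 13142 tested genes. With DESeq2 5 of 23 fell, against 1.92% of its 15135 genes. Hey1, another Notch target gene, had -0.48 ± 0.12, the arterial ephrin gene Efnb2 -0.37 ± 0.099 and the receptor gene Acvrl1 -0.41 ± 0.12 on the log2 scale (SE, with an adjusted p of 0.0987, 0.111 and 0.143 by edgeR).

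**Figure D3:**
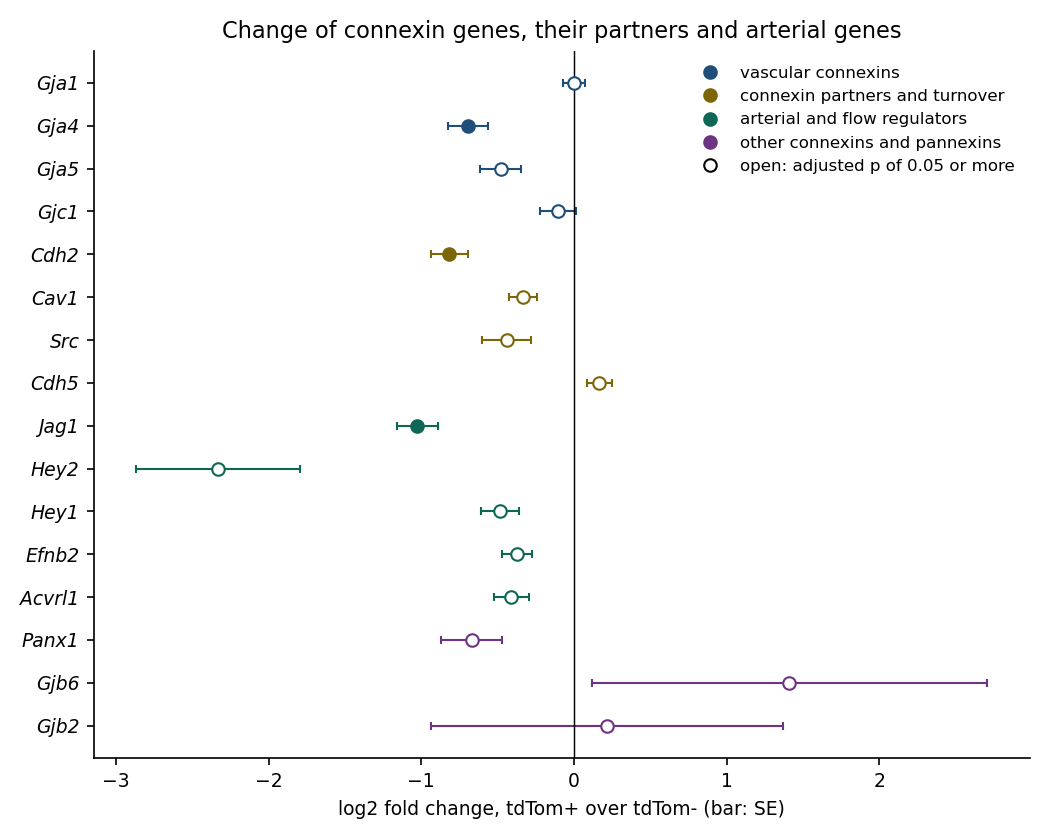
The x axis gives the log2 fold change of tdTom+ over tdTom- with its SE, with 1 row per gene and a filled point where the edgeR adjusted p was under 0.05. Gja4, Cdh2 and Jag1 are filled and lie left of 0, and Gja1 lies at 0.

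Heart regulators of connexin genes gave no call by edgeR, with 8 of 9 tested and a median log2 fold change of -0.56. The T-box gene Tbx20 had -1.79 ± 0.41 on the log2 scale and passed with either other filter, with DESeq2 and without tdTom+ replicate 2, and Gata4 had 0.67 ± 0.20 and passed with the replicate block (adjusted p = 0.0119) and with DESeq2 (SE, with an adjusted p of 0.0654 and 0.174 by edgeR). At an unadjusted p under 0.05 were Tbx20, Gata4 and Tbx3, with Tbx3 at -0.77 ± 0.32, while Irx3 had -0.51 ± 0.29 and Tbx5 -0.68 ± 0.83 (SE).

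Among markers of other cell types that make connexins, 2 endocardial genes passed by edgeR and no cardiomyocyte or mural gene did. The 6 endocardial markers summed to 307 to 425 CPM in tdTom+ and 444 to 640 CPM in tdTom- libraries, and 2 of 6 fell, against 0.814% of all tested genes. Those 2 were Cdh11 and Gata5, with log2 fold changes of -1.67 ± 0.28 and -2.60 ± 0.47 (SE, with an adjusted p of 0.0163 and 0.0223 by edgeR), and these calls were sensitive to single libraries. Nfatc1 and Npr3 overlapped between the groups and did not pass, at -0.17 ± 0.12 and -0.36 ± 0.24 (SE). The Cdh11 call was lost when tdTom+ replicate 1 or either of tdTom- replicates 1 and 2 was left out (adjusted p = 0.0517, 0.0722 and 0.0533). The Gata5 call was lost when either of tdTom+ replicates 1 and 2 was left out (0.0714 and 0.0525) or any tdTom- library (0.171, 0.103 and 0.0692 for replicates 1 to 3). It was also lost with limma-voom. The 10 cardiomyocyte markers summed to 14.2 to 23.6 CPM in tdTom+ and 23.7 to 40.1 CPM in tdTom- libraries, with 0 of 4 tested genes passing, and Tnnt2 and Actc1 at -1.44 ± 0.42 and -1.61 ± 0.60 (SE). The other 2 tested genes, Myh6 and Myl7, went the other way, at 0.86 ± 0.66 and 0.42 ± 0.45 (SE). The 12 mural and mesenchyme markers summed to 84.2 to 241 CPM in tdTom+ and 135 to 386 CPM in tdTom- libraries, with 0 of 11 passing and a median of -0.75. In that list Lum had -1.28 ± 0.34 and passed with the replicate block (adjusted p = 0.0213) and with DESeq2 (0.0123), and Twist1 had -0.97 ± 0.48 (SE). The part of these cells in the Gja4 and Gja5 differences was not tested.

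Neural, epithelial and hepatoblast markers gave no call by edgeR. The 8 neural markers summed to 230 to 242 CPM in tdTom+ and 247 to 267 CPM in tdTom- libraries, with Map2 at -1.36 ± 0.35 and Dcx at -2.17 ± 0.93 (SE). Most of that sum was Nes, with 205 to 212 CPM in tdTom+ and 207 to 223 CPM in tdTom- libraries. Of 7 tested neural markers, 5 log2 fold changes were below 0 and 2 above it, Fabp7 at 0.44 ± 0.32 and Elavl3 at 0.38 ± 0.805 (SE). Map2 passed with DESeq2 (adjusted p = 0.0241), which called 1.92% of its 15135 genes lower in tdTom+. The 6 epithelial markers summed to 1.68 to 68.5 CPM in tdTom+ and 31.7 to 54.9 CPM in tdTom- libraries, with Epcam at -2.21 ± 0.90 and Cldn6 at -1.10 ± 1.001 (SE). Of the 6, 4 log2 fold changes were below 0 and 2 above it, Krt8 at 0.78 ± 1.34 and Cdh1 at 0.14 ± 1.01 (SE). The 8 hepatoblast markers summed to 159 to 170 CPM in tdTom+ and 206 to 448 CPM in tdTom- libraries, with Trf at -0.38 ± 0.13 and Dlk1 at -1.70 ± 0.48, and Dlk1 passed with the replicate block (SE, adjusted p = 0.000865) and without tdTom- replicate 2 (0.0175). Trf and Dlk1 made up most of the hepatoblast sum, with 114 to 129 and 22.7 to 43.0 CPM in tdTom+ libraries. In tdTom- libraries they had 133 to 191 and 46.9 to 176 CPM. Alb and Afp had 0.877 to 3.18 and 0.702 to 9.07 CPM in tdTom+ libraries, and 0.679 to 12.99 and 3.49 to 54.4 CPM in tdTom- libraries. Unadjusted p-values under 0.05 were reached by Map2, Dcx, Epcam, Trf and Dlk1.

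Some blood lineage markers rose in tdTom+ libraries, where edgeR called 0.769% of all tested genes higher. Of the 10 megakaryocyte and platelet markers 6 rose, among them Itga2b with a log2 fold change of 2.78 ± 0.23 and Tubb1 with 5.81 ± 0.58, and of 8 tested erythroid markers 2 rose, Gata1 and Klf1, with 4.40 ± 0.47 and 2.29 ± 0.45 (SE). Of the megakaryocyte and platelet markers, limma-voom called 3, Itga2b, Itgb3 and Pf4 but not Tubb1 (adjusted p = 0.118), and DESeq2 called 9. Over all genes, limma-voom called 69 of 13142 higher in tdTom+ and DESeq2 called 211 of 15135. The Klf1 call held in 7 of 13 alternatives and ended when any library but tdTom+ replicate 3 was left out. The 9 erythroid markers summed to 189 to 266 CPM in tdTom+ and 138 to 240 CPM in tdTom- libraries. Of 5 tested macrophage markers Mrc1 rose by 1.70 ± 0.23, and Csf1r had 0.54 ± 0.39 (SE). The 9 macrophage markers in the table summed to 69.6 to 131 CPM in tdTom+ and 37.0 to 48.0 CPM in tdTom- libraries. Mrc1 alone had 58.8 to 110 CPM in tdTom+ and 24.8 to 33.6 CPM in tdTom- libraries. The other 4 tested markers did not pass, with Cd68 at 0.30 ± 0.63 and C1qa at -0.022 ± 0.79 (SE). Ptprc and Itgam had 0 to 4 and 0 to 6 counts in tdTom+ and 0 to 22 and 0 to 12 counts in tdTom- libraries. The part of any blood lineage cells in the connexin levels was not tested.

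The genes whose levels followed each connexin gene most closely across the 6 libraries were found by the root mean square difference of log2 CPM, after each gene's mean was taken away, among 9939 genes whose log2 CPM averaged 3 or more. Those nearest to Gja4 were Prx, which encodes periaxin, Fzd6, a Wnt receptor gene, and Klf11, a transcription factor gene, at distances of 0.071, 0.075 and 0.094. Fzd6 fell as well, with a log2 fold change of -0.74 ± 0.13 (SE, with an adjusted p of 0.0213 by edgeR), and it did not pass without tdTom+ replicate 1 or tdTom- replicate 1, 2 or 3 (0.0649, 0.109, 0.112 and 0.0766). Since Fzd6 was picked for its likeness to Gja4 over the same libraries, its fall is not separate evidence. Prx and Klf11 did not pass, at -0.80 ± 0.24 and -0.58 ± 0.15 (SE). Among the nearest to Gja5 were AU021092 at 0.058 and the activin receptor gene Acvr2b at 0.068. They had log2 fold changes of -0.44 ± 0.15 and -0.53 ± 0.20 (SE) and did not pass. Gja5 itself lay 0.24 from Gja4, and 277 of the other genes were nearer to Gja4.

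Nearest to Gja1 were Gtf2f2, a general transcription factor gene, Vcp, an ATPase gene, and Bzw2, at 0.018, 0.024 and 0.025, and nearest to Gjc1 were Smc2, a condensin gene, Rest, a repressor gene, and Rprd1b, at 0.028, 0.031 and 0.036. Gja1 and Gjc1 lay 0.14 from each other, and 2679 of the other genes were nearer to Gja1.

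**Figure D4:**
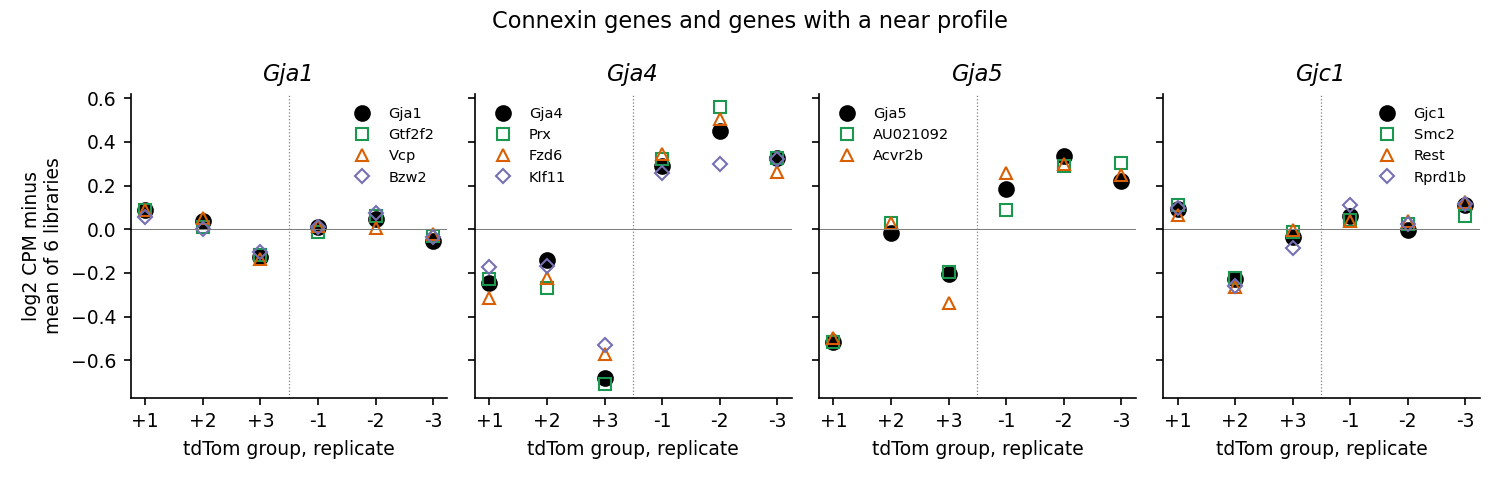
The y axis gives log2 CPM less the gene's mean over the 6 libraries, for a connexin gene (filled) and 2 or 3 of its nearest genes (open) in each panel, with tdTom+ replicates left of tdTom- replicates. Gja4 and its 3 nearest genes lie below 0 in all tdTom+ libraries and lowest in tdTom+ replicate 3, and Gja5 and the genes beside it are lowest in tdTom+ replicate 1.

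The direction of the Gja4 and Gja5 differences was the same in all 13 alternative settings, while their calls were not. Gja4 passed in 9 of the 13, with log2 fold changes from -0.81 to -0.55 and adjusted p from 4.06e-05 to 0.124. Gja5 passed in 1 of the 13, DESeq2, with log2 fold changes from -0.60 to -0.36 and adjusted p from 0.0282 to 0.418. Gjc1 passed in 0 of the 13, with values from -0.18 to -0.025, and so did Gja1, with values from -0.046 to 0.061 that lie on both sides of 0.

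**Figure D5:**
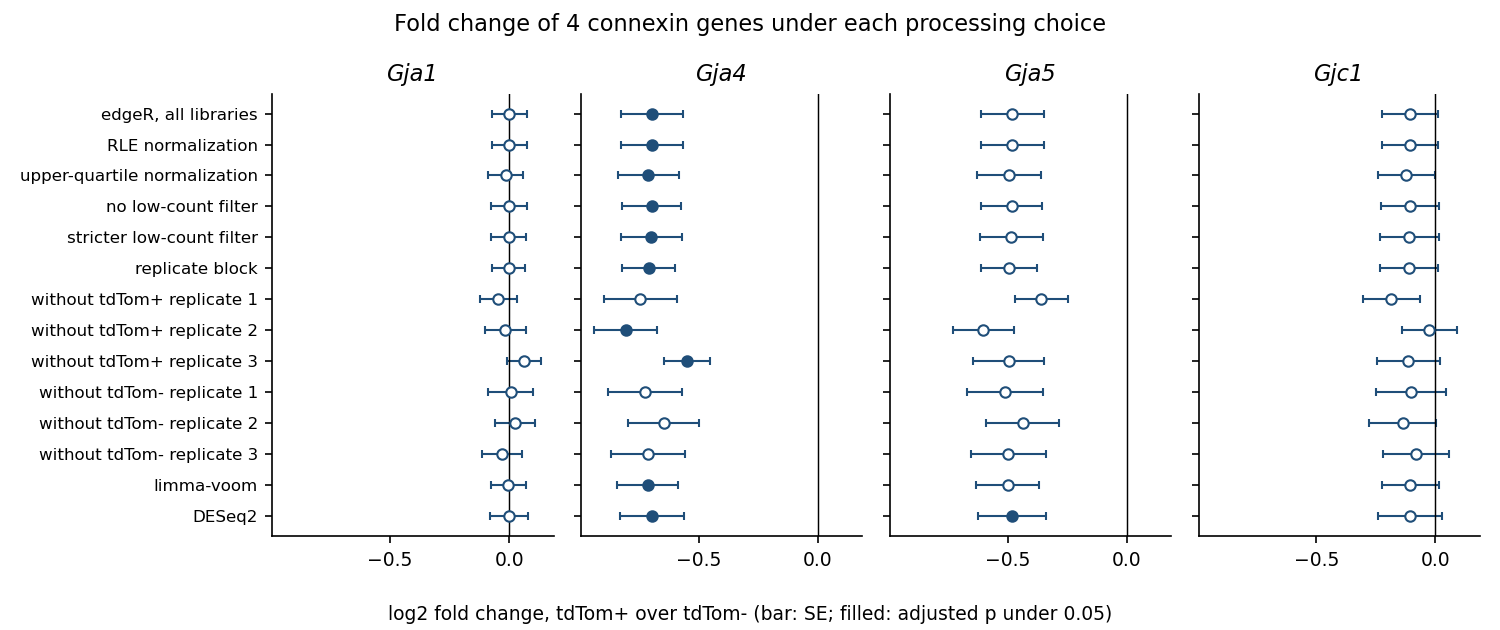
The x axis gives the log2 fold change of tdTom+ over tdTom- with its SE, with 1 row per processing choice and 1 panel per gene, and filled points where the adjusted p was under 0.05. Gja4 is filled in the fit with all libraries and in 9 of 13 alternatives, Gja5 in DESeq2 alone, and Gja1 and Gjc1 in none.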

How the data were processed

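The authors deposited 1 table with whole-number read counts per gene symbol and library, without normalization; its 6 scaled-count columns were not used. The submitters' processing notes list DESeq2, featureCounts 1.4.6, Picard 2.7.1.1, STAR 2.5.2b and Trimmomatic 0.36.4 and the build mm10, without saying which step each served. Per the labels' protocols, cDNA was made with SMART-seq V4 and libraries with Nextera XT, which do not mark strand and add no molecular identifiers. The deposited table also gives the authors' fold (a linear ratio), log2 fold change and p-value of tdTom- over tdTom+.

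The main test was edgeR 4.0.16 under R 4.3.3, with TMM scaling, filterByExpr at a minimum count of 10, and a two-sided robust quasi-likelihood F-test without a block. The SE was taken as the size of the log2 fold change over the root of F, and CPM uses TMM-scaled library sizes. Ratios used raw counts plus 0.5. No pair of libraries in a group agreed within sampling noise (mean chi-square per gene 15.3 to 19.7 in tdTom+ and 8.18 to 10.6 in tdTom-). The test was tested on simulated data. Alternatives used limma 3.58.1, DESeq2 1.42.0, RLE and upper-quartile scaling, 2 other filters, the replicate number as a block and leaving out each library.

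Deviations of same-numbered libraries from their group means correlated at r = 0.218, 0.12 and 0.245 over 9943 abundant genes (0.105, 0.0892 and 0.161 over all tested genes). The protocol divides 3 embryos into both fractions, so the number was taken to pair libraries, with the calls of both fits already known. The members, gene lists and tests were chosen with earlier results of these data known. Named genes were the members, up to 5 tested genes with the smallest p from each pathway list, up to 2 from each marker list, and the 3 nearest profiles of each member. A few other list genes were named after their values were seen. Some genes that this rule picks are not reported here.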

Additional observations from a re-analysis of the deposited data

How the results depend on the processing

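Leaving out 1 library moved the number of genes called from 208 to between 62 and 189, and DESeq2 called 502. With the replicate block 295 genes were called, Gja4 had a log2 fold change of -0.71 (edgeR adjusted p = 0.00571) and Gja5 one of -0.49 (0.0584). The block changed the call of no connexin gene, and of the genes named above it changed those of Cav1, Hey2, Gata4, Lum and Dlk1. Leave-one-out values ran from -0.81 to -0.55 for Gja4, and DESeq2 gave Gja5 -0.48 with a call. Gja1 turned below 0 with upper-quartile scaling (-0.015), without the filter (-0.00095), with the stricter filter (-0.0026), with the replicate block (-0.0014) and with limma-voom (-0.0031), and ran from -0.046 to 0.061 when a library was left out. With Cdh5 as the denominator the ratios of Gja1 and Gjc1 changed sign, to -0.17 and -0.28, and that of Gjc1 to Pecam1 ran from -0.013 to 0.15 when a library was left out. Signs also changed for Gjb2 (-0.66 with the block, -1.14 with limma-voom, -1.43 to 0.80 with a library left out), Vcp (-0.011 with upper-quartile scaling, -0.039 to 0.071), Gtf2f2 (-0.061 to 0.043), Bzw2 (-0.069 to 0.012) and Smc2 (-0.16 to 0.0081). The cause of these changes was not tested. With 3 libraries a group, no exact test of a ratio could go below p = 0.1, and genes near the floor of 3 counts could not be compared.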
